A study of Homo sapiens with 4 samples.

Results

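The 10 integrin subunit genes described here are the alpha subunits *ITGA2*, *ITGA3*, *ITGA4*, *ITGA5*, *ITGA6* and *ITGAV* and the beta subunits *ITGB1*, *ITGB3*, *ITGB4* and *ITGB5*. They were chosen by name from the 26 integrin genes of the human genome, and all 10 were listed in each of the 4 deposited count tables, which had 32991 genes in common. The tables hold single-cell transcriptomes of A375, an established *BRAF*-mutant melanoma cell line. Untreated, sensitive cells (S) were set against cells made resistant to the BRAF inhibitor vemurafenib (RV), to vemurafenib with the MEK inhibitor cobimetinib (RVC) or to vemurafenib with the MEK inhibitor trametinib (RVT). A further 703 genes were listed only for S and RV, and 547 only for RVC and RVT. Every ratio of RVC or RVT over S crosses this split. Resistance was raised over 10 to 14 days at a fraction of the inhibitory concentration, and the drugs were withdrawn 24 h before capture. Each condition was 1 culture and 1 library, so no difference between conditions could be tested against replicate error, and every interval given here covers counting error only.

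Integrins are the receptors by which cells hold on to the extracellular matrix. Each receptor is a pair of 1 alpha and 1 beta chain that assemble before they reach the cell surface, and the alpha chain sets much of the ligand choice. *ITGB1* is the common partner of most alpha chains, while *ITGAV* also pairs with *ITGB3*, *ITGB5* and *ITGB8*, and *ITGA6* also pairs with *ITGB4*. In melanoma, integrins are known for their part in adhesion, migration and survival signaling, and *ITGB3* is a classical marker of invasive growth.

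Levels are given as CPM, the unique molecular identifiers (UMIs) of a gene per 1000000 UMIs summed over the cells of a library. Each UMI counts 1 transcript from its 3′ end, so CPM needs no division by transcript length, but splice forms with a shared 3′ end were counted together. After filtering, the libraries held 4177 to 8445 cells with a median of 2871 UMIs per cell in RVT to 11553 in RV. A count of 3 UMIs, taken as the detection floor, corresponded to 0.0512 CPM in S and 0.118 CPM in RVT. Libraries shared between 0.862% and 1.38% of the cell barcodes of the smaller library. The melanocyte lineage markers summed to 129 CPM in S and 67.6 in RV, against 13.0 in RVC and 62.9 in RVT, and *SOX10* and *S100B*, which made up most of the sum in S, had 0 UMIs in RVC. Both were lower in RV and RVT than in S as well: *SOX10* had 86.3 CPM in S, 39.9 in RV and 19.4 in RVT, and *S100B* 32.8, 6.97 and 0.276. Not all of the 8 ran that way: *MITF* was lowest in RVC at 8.13 CPM and highest in RVT at 41.3, with 9.78 in S and 20.2 in RV, and *TYRP1* was highest in RVC at 4.76 CPM. *MITF* supplied most of the RVT sum. The 6 fibroblast markers summed to 2.56 CPM in S and 2.23 in RV, against 167 in RVC and 43.1 in RVT, with *COL3A1* at 121 CPM in RVC and at 0 in S and RV. Of these 6, 2 were at 0 in S and 2 in RV, against 0 in RVC and 1 in RVT. Among the fibroblast markers, *COL1A1* had 2.85 CPM in RVC and 3.54 in RVT, and *COL1A2* had 0.273 in RVC. Every library is labelled A375. RVC thus held much *COL3A1* and no *SOX10* UMIs, while *MITF* and *TYRP1* were read there. Whether the RVC culture is the same line was not tested, and every RVC value below is that of the library labelled RVC. Immune and endothelial markers stayed at or below 1.40 CPM in sum. The 3 comparisons against S share that library.

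The promoter sequences below belong to *ITGA2* and *ITGAV*, the members with the largest CPM ratios over S in RVC and in RVT, although with GC centring, described below, *ITGA3* passed *ITGAV* in RVT. They are the 250 bases upstream of the RefSeq start on GRCh38.p14, both on the plus strand, at chr5:52989102-52989351 for *ITGA2* and chr2:186589806-186590055 for *ITGAV*. Capitals mark matches to the GC box GGGCGG on either strand.
ITGA2: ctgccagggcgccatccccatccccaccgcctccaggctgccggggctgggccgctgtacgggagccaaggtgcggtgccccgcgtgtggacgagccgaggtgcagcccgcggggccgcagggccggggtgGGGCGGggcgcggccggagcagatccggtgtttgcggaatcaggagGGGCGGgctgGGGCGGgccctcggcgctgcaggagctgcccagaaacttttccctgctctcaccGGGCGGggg
ITGAV: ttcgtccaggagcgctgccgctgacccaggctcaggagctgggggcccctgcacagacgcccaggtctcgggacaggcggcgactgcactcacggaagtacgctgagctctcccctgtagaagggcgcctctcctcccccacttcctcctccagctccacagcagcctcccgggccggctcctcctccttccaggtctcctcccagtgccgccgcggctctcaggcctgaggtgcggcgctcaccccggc
The *ITGA2* window held 4 GC boxes and was 76.4% G and C, while the *ITGAV* window was 70.8% G and C and held none. Of all 35116 RefSeq windows of this length, 42.6% held a GC box. The AP-1 site TGACTCA occurred in 4.2% of all windows, the TEAD site GGAATG in 11.9% and the E-box CACGTG in 6.34%, each searched on both strands, and neither printed window held any of them. RefSeq windows were found for 7 of the 10 members, 12 windows in all. Of these, 6 held a GC box, 2 a TEAD site, 1 an E-box and 0 an AP-1 site. A match describes letters only.

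**Figure D1:**
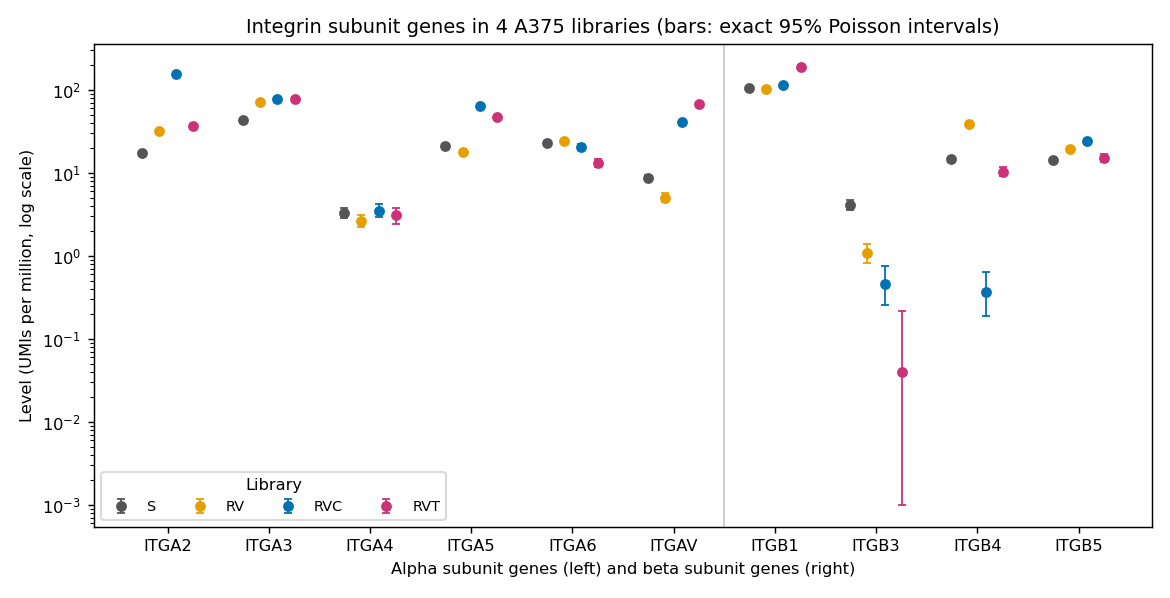
Level of each member in each library in CPM, on a log axis, with alpha subunit genes on the left and beta subunit genes on the right. Points are library sums and bars are exact 95% Poisson intervals, and *ITGB3* in RVT rests on 1 UMI. *ITGA2* stood highest in RVC, *ITGAV* in RVT, and *ITGB4* spanned 0.364 to 39.1 CPM.

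The collagen and laminin receptors are described first. *ITGA2* (ENSG00000164171, chr5:52989326-53094779, plus strand) encodes the alpha chain of a collagen receptor with *ITGB1*. Its level was 17.5 CPM in S and 31.8 in RV, against 154 in RVC and 36.3 in RVT. RVC stood far above the other 3 libraries, and RV and RVT both lay above S. The ratio over S was 8.80 in RVC (95% counting interval 8.23 to 9.42), 2.07 in RVT (1.89 to 2.27) and 1.81 in RV (1.67 to 1.96). Of all genes measured at 1 CPM or more in the mean, 2.26% had a higher RVC over S ratio than *ITGA2*. The RVT value was close to the 2-fold line and depended on scaling: the log2 ratio of 1.05 became 0.53 with TMM scaling and 0.27 when centred on genes of like GC content in their last 500 bases. In RVC, the *ITGA2* to *ITGB1* UMI ratio was 1.335 as counted and 1.3 with GC centring, while *ITGB1* over S fell, as given below. The *ITGA2* ratio of 8.80 was therefore also lower with GC centring, though still past 2-fold.

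*ITGA3* (ENSG00000005884, chr17:50055968-50090481, plus strand), the alpha chain of a laminin receptor with *ITGB1*, led the alpha members in S, RV and RVT. It measured 43.7 CPM in S and 72.3 in RV, against 78.8 in RVC and 78.1 in RVT. All 3 resistant libraries exceeded S by less than 2-fold, with ratios of 1.65 (1.57 to 1.74), 1.80 (1.71 to 1.90) and 1.79 (1.68 to 1.89). Its 3′ end is rich in G and C (59.2% of the last 500 bases), and centring on genes of like GC content raised the log2 ratio over S from 0.85 to 2.21 in RVC and from 0.84 to 2.54 in RVT. Across genes, the log2 ratio and this GC content had a Spearman correlation of -0.348 in RVC over S and -0.411 in RVT over S, against 0.0089 in RV over S.

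*ITGA6* (ENSG00000091409, chr2:172427354-172506282, plus strand), the laminin receptor chain shared by *ITGB1* and *ITGB4*, had close levels as counted in S, RV and RVC. It measured 23.0 CPM in S and 24.0 in RV, against 20.7 in RVC and 13.3 in RVT. RVT was the low library, 1.74-fold below S (1.54 to 1.96). With TMM scaling the log2 ratio of RVT over S went from -0.80 to -1.31, and with GC centring to -1.66, past the 2-fold line in both. GC centring also moved RVC further below S, though not past 2-fold.

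*ITGB4* (ENSG00000132470, chr17:75721328-75757818, plus strand), which joins *ITGA6* in the hemidesmosome, varied more than any other member detected above the floor in every library. It had 14.7 CPM in S and 39.1 in RV, against 0.364 in RVC and 10.3 in RVT, from 859, 2051, 12 and 262 UMIs. RV was 2.67-fold above S (2.47 to 2.90), RVC was 40.3-fold below S (22.9 to 78.2), and RVT was 28.3-fold above RVC (15.9 to 55.5). The RVT over S log2 ratio of -0.51 became -1.02 with TMM scaling and turned to 1.84 with GC centring, while RVC over S went from -5.33 to -2.95 with GC centring and stayed past 2-fold. The 3′ part of *ITGB4* overlaps *GALK1*, a galactose kinase gene on the opposite strand, which measured 43.4 CPM in S and 53.5 in RV, against 5.04 in RVC and 8.54 in RVT. How the counting treated strand is not given in the sources used here, so reads of the overlap cannot be told apart. The 5 epithelial markers summed to 6.50 CPM in S and 11.5 in RV, against 0.121 in RVC and 0.748 in RVT, with 1, 2, 4 and 3 of the 5 at 0. Nearly all of that sum was *KRT14*, a basal keratin gene, with 366 UMIs in S and 593 in RV, against 0 in RVC and 18 in RVT. *EPCAM* had 1 to 6 UMIs in each library, *ESRP1* at most 12 and *KRT5* at most 1, and *CDH1* had 0 in all libraries. *ESRP1* was highest in S, with 12 UMIs there and 3 in RV. *KRT14* alone of the 5 was, like *ITGB4*, highest in RV and lowest in RVC, and the part of epithelial cells in the *ITGB4* level was not tested.

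The fibronectin receptors form the next group. *ITGA5* (ENSG00000161638, chr12:54395261-54419460, minus strand) makes the classical fibronectin receptor with *ITGB1*. It measured 21.2 CPM in S and 17.9 in RV, against 64.0 in RVC and 47.3 in RVT, so that both double-resistant libraries lay above S and RV. For RVC the ratio over S was 3.01 (2.81 to 3.23), and for RVT it was 2.23 (2.06 to 2.41). The RVT log2 ratio of 1.16 fell below the 2-fold line with TMM scaling, at 0.64, and was 1.95 with GC centring. *ITGA4* (ENSG00000115232, chr2:181457202-181536187, plus strand), whose receptor with *ITGB1* binds VCAM1 and fibronectin, was low throughout, at 3.29 CPM in S and 2.63 in RV, against 3.52 in RVC and 3.07 in RVT. Its counting intervals overlapped among all 4 libraries, and the sign of its RVC over S ratio changed with scaling.

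*ITGAV* (ENSG00000138448, chr2:186590065-186680901, plus strand) encodes the alpha chain of the vitronectin and other RGD receptors. It measured 8.67 CPM in S and 5.06 in RV, against 40.6 in RVC and 68.1 in RVT. RV lay below S by 1.71-fold (1.47 to 2.00), whereas RVC and RVT lay above it. The ratio over S was 4.69 in RVC (4.23 to 5.20) and 7.86 in RVT (7.11 to 8.69), and 4.01% of all genes had a higher RVT over S ratio. GC centring lowered the log2 ratio of RVT over S from 2.97 to 2.11, still past 2-fold. The ratio of RVC over S was lowered as well and also stayed past 2-fold.

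*ITGB3* (ENSG00000259207, chr17:47253846-47311816, plus strand), the beta chain of the vitronectin receptor, was the lowest member in RV and RVT. It was read by 242 UMIs in S and 57 in RV, against 15 in RVC and 1 in RVT, or 4.13, 1.09, 0.455 and 0.0394 CPM. Every resistant library lay below S, and the intervals of S and RV did not overlap with each other or with those of the double-resistant libraries. The level was 3.79-fold lower in RV (2.83 to 5.16) and 9.07-fold lower in RVC (5.39 to 16.5). In RVT the ratio of 105-fold lower rests on 1 UMI, below the floor, with a counting interval of 18.7 to 4160. A second annotated gene on the same strand, *AC068234.1*, spans the *ITGB3* locus and had 0 UMIs in all libraries. On the opposite strand *THCAT158*, over the 3′ end of *ITGB3*, had 28 UMIs in S and 37 in RV, against 5 in RVC and 3 in RVT, and *AC068234.2* had at most 8, so here too reads of the overlap cannot be told apart. *ITGB3* passed the 1 CPM mean largely through its level in S.

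*ITGB5* (ENSG00000082781, chr3:124761948-124901418, minus strand), another vitronectin receptor chain, stayed within 2-fold of S. Its levels were 14.3 CPM in S and 19.5 in RV, against 24.0 in RVC and 15.2 in RVT, and the sign of RVT over S turned with TMM scaling and with GC centring, to -0.43 in both. *ITGB1* (ENSG00000150093, chr10:32900319-33005792, minus strand), the common beta chain, was the leading member by CPM in S, RV and RVT, but lay below *ITGA3* in RVT with GC centring. It had 105 CPM in S and 103 in RV, against 116 in RVC and 190 in RVT. S and RV differed by less than counting error, and RVT stood above the rest, at 1.81 times S (1.75 to 1.88). That log2 ratio of 0.86 was 0.34 with TMM scaling and 0.12 with GC centring, and for RVC over S the value of 0.14 turned to -0.07 and -0.48.

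The order of the members differed between the libraries. In S it ran *ITGB1*, *ITGA3*, *ITGA6*, *ITGA5*, *ITGA2*, *ITGB4*, *ITGB5*, *ITGAV*, *ITGB3* and *ITGA4*, and the intervals of *ITGA6* and *ITGA5*, of *ITGB4* and *ITGB5*, and of *ITGB3* and *ITGA4* overlapped. In RV *ITGB4* moved to the third place behind *ITGB1* and *ITGA3*, and the only overlapping neighbours were *ITGB5* and *ITGA5*. In RVC *ITGA2* was above *ITGB1*, followed by *ITGA3*, *ITGA5* and *ITGAV*, and the intervals of *ITGB5* and *ITGA6* and of *ITGB3* and *ITGB4* overlapped. In RVT *ITGB1* and *ITGA3* led again with *ITGAV* in the third place, and *ITGB5* and *ITGA6* overlapped. This order is of CPM as counted: with GC centring *ITGA3* led both double-resistant libraries, ahead of *ITGA2* in RVC and of *ITGB1* in RVT, and *ITGAV* in RVT lay below *ITGA5* and *ITGB4*. The order compares captured 3′ ends, and the capture efficiency of each gene was not measured.

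The members were then counted at 2-fold. In RV over S, 1 of 10 was higher (*ITGB4*) and 1 lower (*ITGB3*), where 3.48% of 12640 genes were higher and 3.24% lower. In RVC over S, 3 were higher (*ITGA2*, *ITGA5* and *ITGAV*) and 2 lower (*ITGB3* and *ITGB4*), against 23.8% and 22.3% of 12670 genes. In RVT over S, the same 3 alpha subunits were higher and *ITGB3* was lower, against 34.0% and 21.6% of 12672 genes, while with GC centring *ITGA3*, *ITGA5*, *ITGAV* and *ITGB4* were higher and *ITGA2* was not. With TMM scaling that comparison had 1 member higher (*ITGAV*) and 3 lower (*ITGA6*, *ITGB3* and *ITGB4*). In RVT over RVC, *ITGB4* was higher and *ITGA2* and *ITGB3* lower, against 21.7% and 12.1% of 12642 genes. The shares of members in the double-resistant comparisons were near those of all genes. The median log2 ratio of the members was 0.02, 0.45, 0.46 and -0.32 in these comparisons, beside 0.02, 0.21, 0.41 and 0.29 over all genes. TMM scaling moved the median of all genes by -0.516 in RVT over S, -0.213 in RVC over S and -0.303 in RVT over RVC, all on the log2 scale. It cut the share of all genes higher in RVT over S to 21.1% and raised the lower share to 29.9%. The share of all genes higher in RVT over RVC fell with TMM scaling as well.

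**Figure D2:**
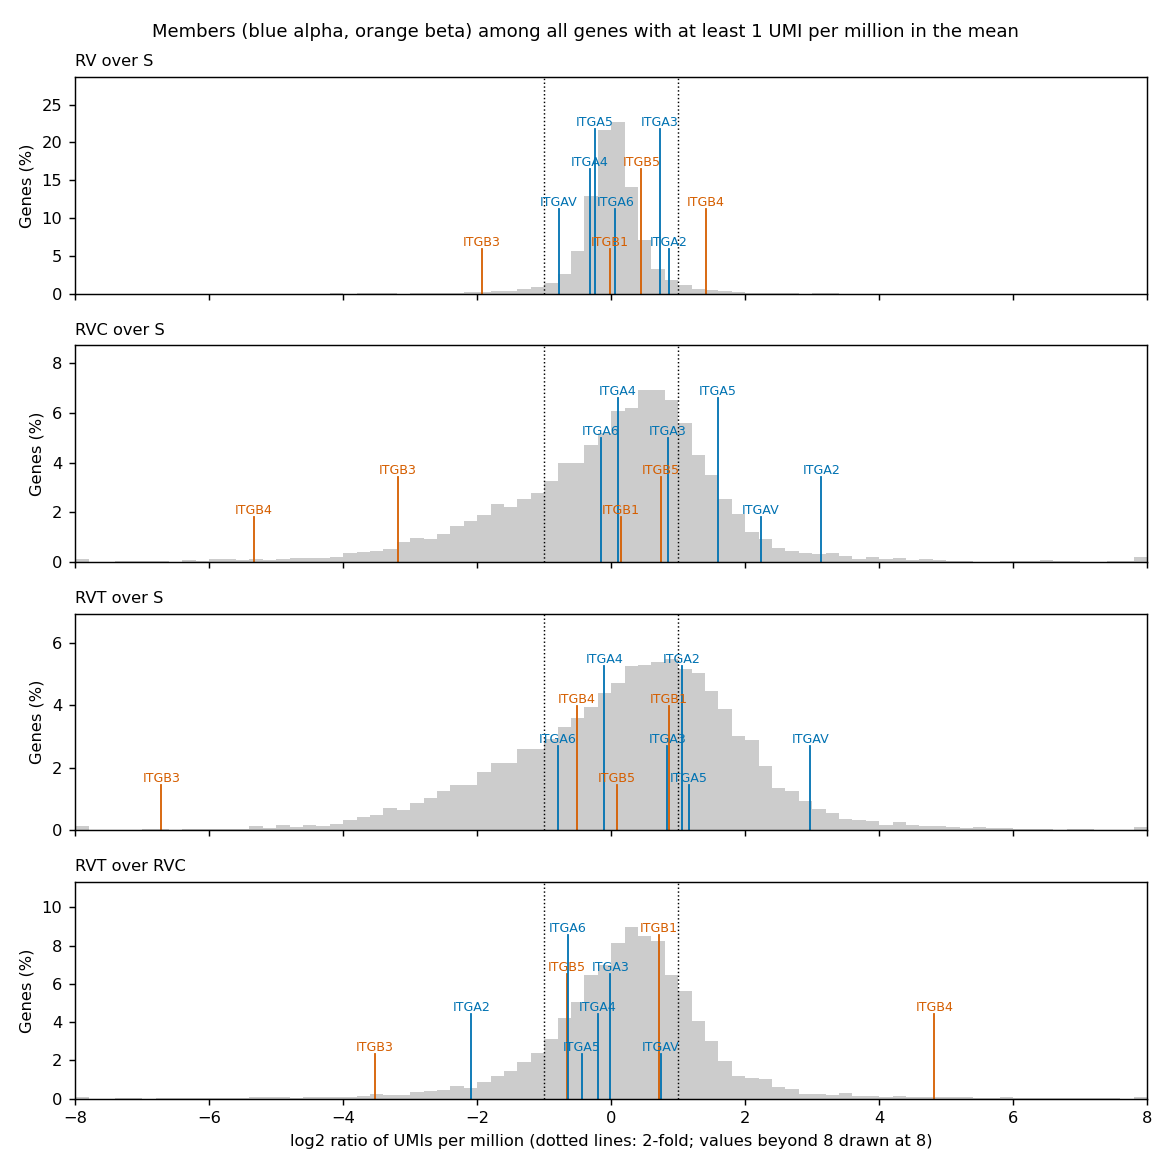
Distribution of log2 CPM ratios over all genes (grey bars, percent of genes in each bin) with the members drawn as vertical lines, blue for alpha and orange for beta subunits, in 4 comparisons. Line height has no meaning. *ITGA2* and *ITGAV* lay in the upper tail of RVC over S, *ITGB3* in the lower tail of all 4 panels, and *ITGB4* above 0 in RV over S and RVT over RVC and below 0 in the other panels.

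Grouped by chain, the alpha members summed to 118 CPM in S and 154 in RV, against 362 in RVC and 246 in RVT. The beta members summed to 138, 163, 140 and 215 CPM. By CPM, RVC therefore had the highest alpha sum and a beta sum close to that of S. The UMI ratio of the 6 alpha members to *ITGB1*, their common partner, was 1.12 in S (1.09 to 1.16) and 1.49 in RV (1.44 to 1.54), against 3.13 in RVC (3.02 to 3.25) and 1.30 in RVT (1.25 to 1.35). This ratio does not depend on library size, but it does on the GC trend: centred on genes of like GC content with S as the reference, an alternative added after seeing the data, it was 1.49 in RV, 5.71 in RVC and 3.56 in RVT. RVT, near S as counted, then lay far above it.

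The make-up within each chain differed as well. *ITGA2* supplied 14.9% of alpha UMIs in S and 20.7% in RV, against 42.6% in RVC and 14.8% in RVT. *ITGA3* supplied 37.2%, 47.0%, 21.8% and 31.7%, and *ITGA6* 19.6%, 15.6%, 5.72% and 5.39%. *ITGAV* made up 7.38%, 3.29%, 11.2% and 27.7%. Among the alpha members, the leading chain was thus *ITGA3* in S, RV and RVT and *ITGA2* in RVC. The *ITGA6* share was lower in both double-resistant libraries than in S and RV. These are shares of UMIs as counted, and with GC centring *ITGA3* passed *ITGA2* in RVC. GC centring raised the alpha sum per *ITGB1* UMI from 3.13 to 5.71 in RVC and from 1.30 to 3.56 in RVT. *ITGAV* per *ITGB1* UMI moved less, from 0.352 to 0.361 and from 0.359 to 0.330. The *ITGAV* share was therefore lower with GC centring than as counted in both, and in RVC no longer above S. Among beta UMIs, *ITGB1* supplied between 63.3% in RV and 88.1% in RVT, and *ITGB4* 10.6% in S and 24.0% in RV, against 0.259% in RVC and 4.79% in RVT. With GC centring *ITGB4* in RVT stood above its S level and *ITGB1* close to its own, as given above. The RVT share of *ITGB4* then lay above that of S, and the RVT share of *ITGB1* below its counted 88.1%.

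The possible partners of the 2 promiscuous alpha chains differed between libraries. *ITGA6* had 1.57 UMIs per *ITGB4* UMI in S (1.44 to 1.71) and 0.613 in RV (0.571 to 0.658), against 56.9 in RVC (32.4 to 111) and 1.29 in RVT (1.09 to 1.52). With GC centring the ratio was 7.30 in RVC, still above S, and 0.139 in RVT, far below S. For *ITGAV*, the ratio to *ITGB5* was 0.607 in S and 0.259 in RV, against 1.70 in RVC and 4.48 in RVT, or 1.47 and 3.52 with GC centring. *ITGB8*, a TGF-beta-activating partner of *ITGAV* outside the 10 members, measured 19.8 CPM in S and 9.45 in RV, against 1.06 in RVC and 20.7 in RVT. Of the UMIs of *ITGB3*, *ITGB5* and *ITGB8* together, *ITGB5* held 37.4% in S and 65.0% in RV, against 94.0% in RVC (92.2 to 95.5) and 42.3% in RVT (39.1 to 45.6). *ITGB8* held 51.8%, 31.4%, 4.17% and 57.6%, and *ITGB3* 10.8%, 3.62%, 1.79% and 0.11%. At the transcript level, the *ITGAV* partner other than *ITGB1* with the most UMIs was *ITGB5* in RV and RVC and *ITGB8* in S and RVT.

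**Figure D3:**
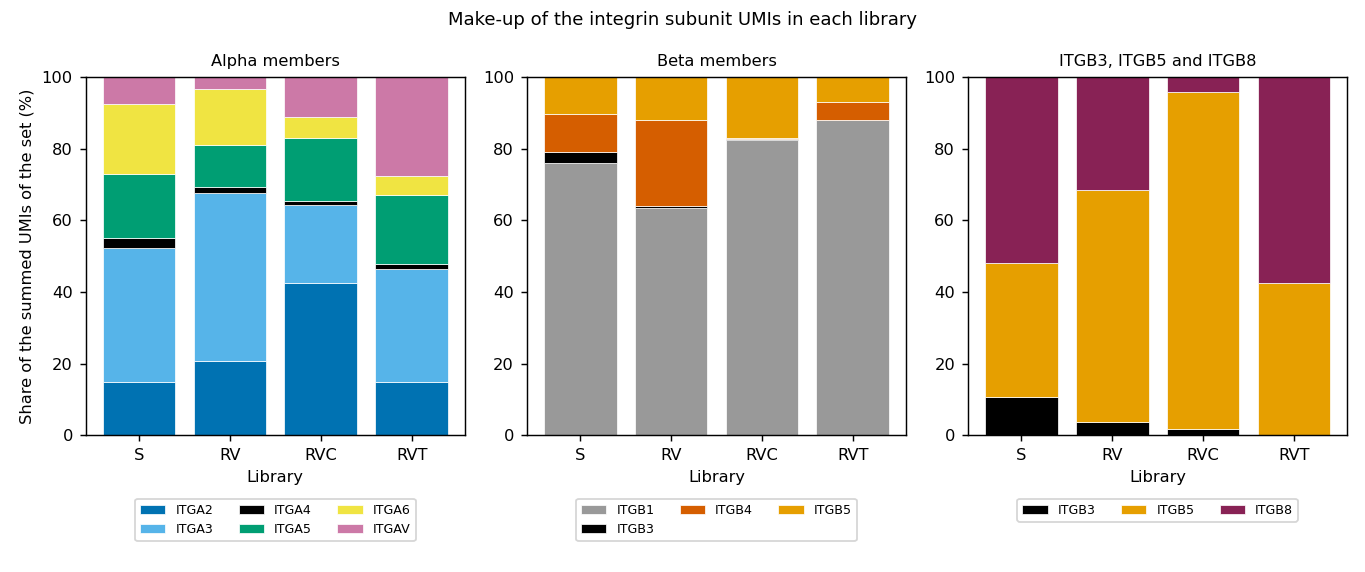
Share of summed UMIs in percent supplied by each gene among the 6 alpha members, the 4 beta members, and *ITGB3*, *ITGB5* and *ITGB8*, with 1 stacked bar per library. *ITGA2* filled 42.6% of the alpha bar in RVC, *ITGB4* 24.0% of the beta bar in RV, and *ITGB5* 94.0% of the right-hand bar in RVC. Shares are of UMIs as counted, without GC centring.

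Of the other 16 integrin genes, 6 passed 1 CPM in the mean. *ITGAE*, an alpha chain best known from mucosal T cells, had 51.9 CPM in S and 57.3 in RV, against 193 in RVC and 99.1 in RVT. As counted, it lay above every alpha member in S, RVC and RVT, and below *ITGA3* in RV. *ITGA1*, the other common collagen receptor chain, had 14.0, 4.73, 6.40 and 14.4 CPM, in an order unlike that of *ITGA2*, and shares its strand and locus with *PELO*. *ITGA11*, a fibrillar collagen receptor chain of fibroblasts, had 0.29 CPM in S and 0.115 in RV, against 3.34 in RVC and 7.05 in RVT. *ITGA10* was highest in RV at 10.3 CPM and at most 4.28 CPM elsewhere, and *ITGA7* ranged from 1.05 to 3.73 CPM. *ITGB7*, a leukocyte integrin chain below that mean, had 2.12 CPM in RV and at most 0.364 CPM elsewhere, and *ITGB2* had 2.84 CPM in RV and at most 0.682 elsewhere; both were named after their values were seen. *ITGAX*, another leukocyte chain, was highest in RV at 1.55 CPM and lowest in RVT at 0.236, with 0.785 in S and 1.27 in RVC. The leukocyte and platelet chains *ITGAL*, *ITGAM*, *ITGAD* and *ITGA2B* had at most 3 UMIs in any library.

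Detection in single cells was compared next. Depth differed between libraries, so cells were thinned to 1500 UMIs each, which left out 397 RVC and 845 RVT cells and none of S or RV. *ITGB1* was then found in 14.1% of S cells, 14.5% of RV, 16.2% of RVC and 24.7% of RVT cells (not thinned 57.8%, 67.5%, 37.5% and 42.2%). *ITGA2* was found in 2.16%, 4.24%, 20.1% and 5.21% of cells (not thinned 13.3%, 28.8%, 40.3% and 9.62%). RVC was the only library in which *ITGA2* was seen in more cells than *ITGB1*.

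*ITGAV* was found in 1.39% of thinned S cells, 0.838% of RV, 6.06% of RVC and 10.1% of RVT cells (not thinned 7.56%, 5.96%, 15.6% and 18.3%). *ITGB4* was found in 2.12%, 5.70%, 0.0554% and 1.51% (not thinned 11.2%, 33.3%, 0.157% and 3.01%), and in RVC that is 4 of 7226 thinned cells. *ITGB3* was found in 0.726%, 0.144%, 0.083% and 0.0132% of thinned cells (not thinned 3.71%, 1.32%, 0.197% and 0.0118%), the last being 1 RVT cell. The thinned shares of *ITGA2*, *ITGAV*, *ITGB4*, *ITGB3* and *ITGA5* ordered the libraries as their CPM did. The shares stood in the reverse order of the CPM for *ITGB1* and *ITGA6* in S and RV, for *ITGA4* in S and RVC, and for *ITGA3* in RVC against both RV and RVT, and no order is read from these. The shares without thinning also carry the greater depth of S and RV. *ITGA3* was found in 6.43%, 10.9%, 10.6% and 10.9% of thinned cells and *ITGA5* in 3.25%, 2.32%, 8.91% and 6.89% (not thinned 30.4%, 54.4%, 26.9% and 20.1%, and 17.6%, 19.2%, 22.8% and 13.1%). *ITGA6*, *ITGB5* and *ITGA4* lay between 0.335% and 3.73% of thinned cells in all libraries, and between 0.888% and 24.97% without thinning. A UMI can also come from free RNA in the droplet, and no cell type that should lack integrins is labelled in these libraries from which to measure that background.

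A thinned cell held UMIs of 0.367 members on average in S and 0.453 in RV, against 0.693 in RVC and 0.642 in RVT (not thinned 1.75, 2.59, 1.63 and 1.15). No member was seen in 68.4% of S cells, 62.3% of RV and 49.2% of RVC, and in 3801 of 7600 RVT cells, and no more than 5 members were seen in any thinned cell. The variance of UMIs per thinned cell lay between 0.979 and 1.07 times the mean for the members with an estimate, apart from *ITGA2* in RVC at 1.19. By this measure alone, *ITGA2* in RVC stood highest, with a mean of 0.243 and up to 7 UMIs in a thinned cell. The measure can rise with the mean for a like spread among cells, so it does not rank unevenness across levels. *ITGB1* in RVT, with a mean of 0.291, had a value of 1.04.

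Both chains of a receptor were seldom read in the same cell. *ITGA2* with *ITGB1* was found in 0.363% of thinned S cells, 0.527% of RV, 3.39% of RVC (2.99 to 3.83) and 1.36% of RVT cells (not thinned 8.51%, 20.5%, 16.9% and 4.31%). *ITGA3* with *ITGB1* was found in 0.9%, 1.51%, 2.02% and 2.66% of thinned cells (not thinned 19.9%, 38.2%, 12.4% and 9.38%). *ITGAV* with *ITGB1* was found in 0.268%, 0.0718%, 0.969% and 2.57% (not thinned 4.78%, 4.12%, 6.94% and 8.51%). The collagen receptor pair was the pair most often found in RVC and the *ITGA3* pair in the other 3 libraries, although in RVT its interval of 2.31% to 3.04% overlapped that of the *ITGAV* pair at 2.22% to 2.95%, and in S its interval of 0.682% to 1.16% overlapped those of the *ITGA5* and *ITGA6* pairs with *ITGB1*, up to 0.768% and 0.786%.

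Joint detection was set beside the product of the single shares, for pairs where the product gave 5 cells or more. For *ITGA2* with *ITGB1* in RVC, 245 cells held both against 234.6 from the product, a ratio of 1.04, and in RVT 103 against 97.96, a ratio of 1.05. Over all pairs and libraries the thinned ratio ran from 0.592 for *ITGAV* with *ITGB1* in RV, where 3 cells held both, to 1.46 for *ITGAV* with *ITGB5* in RVT, where 28 did against 19.2 from the product. In RVC it was 1.17 for *ITGA3* and 1.30 for *ITGA6* with *ITGB1*. Without thinning the ratios lay between 1.02 and 1.40, but cells of unequal depth raise joint detection above the product by themselves, so nothing is read from these. *ITGA6* with *ITGB4* was found in 7 S, 10 RV, 0 RVC and 1 RVT cells after thinning. *ITGAV* with *ITGB3* was found in 0 thinned cells of every library. The product gave at most 0.639 cells for that pair and 0.126 for *ITGA6* with *ITGB4* in RVC, so these 0 counts were below what the depth could show and say nothing of pairing. Without thinning, *ITGAV* and *ITGB3* were both read in 23 S, 2 RV, 1 RVC and 1 RVT cells.

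Within S, the members differed between cells carrying the neural crest-like genes and the rest. Cells with at least 2 of 8 genes that the study lists for its neural crest-like cluster (*SOX10*, *ERBB3*, *CD74* and others, chosen on these same libraries) made up 1876 S cells (29.6%), 350 RV, 57 RVC and 615 RVT cells. In marked S cells *ITGB3* had 6.13 CPM against 3.38 in the others, a ratio of 1.81 (1.39 to 2.36). *ITGA4* had 5.13 against 2.60 CPM, a ratio of 1.97 (1.46 to 2.64). Both low-level members were thus higher in marked S cells, as were *ITGA6* (ratio 1.31, 1.17 to 1.47), *ITGAV* (1.29, 1.07 to 1.56) and *ITGB8* (1.61, 1.43 to 1.82).

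The remaining members of S pointed the other way or not at all. *ITGB4* had 10.6 CPM in marked S cells against 16.2 in the others, a ratio of 0.653 (0.548 to 0.773). *ITGA2* and *ITGA3* had ratios of 0.785 (0.676 to 0.91) and 0.77 (0.701 to 0.846), and *ITGB1* 0.902 (0.851 to 0.955). In RV the *ITGB4* ratio was 1.23 (1.04 to 1.45), *ITGA6* 1.56 (1.28 to 1.88) and *ITGB8* 3.41 (2.70 to 4.28). The direction of *ITGB4* therefore differed between S and RV, while *ITGA6* and *ITGB8* were higher in marked cells of both. The RV ratios of the other members had intervals that included 1, with *ITGB3* at 2.01 (0.769 to 4.46) and *ITGAV* at 1.24 (0.751 to 1.93), and with *ITGA4* at 0.884 (0.374 to 1.79), *ITGA2* at 0.908 (0.734 to 1.11) and *ITGA3* at 1.03 (0.905 to 1.17). Of these, the *ITGA3* interval alone lay apart from that of S. The 57 marked RVC cells were marked without *SOX10*, which had 0 UMIs in that library. Among them *ITGAV* was at 1.74 (1.01 to 2.79) from 17 UMIs, and the other member intervals there included 1. In RVT *ITGB8* was at 1.40 (1.04 to 1.86), and the intervals of the members with a ratio all included 1, with *ITGA6* at 0.97 (0.617 to 1.46) and *ITGA4* at 1.02 (0.361 to 2.33). Cells of 1 library are not replicates, and marked cells had a median of 8254 UMIs in S against 9065 in the others.

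**Figure D4:**
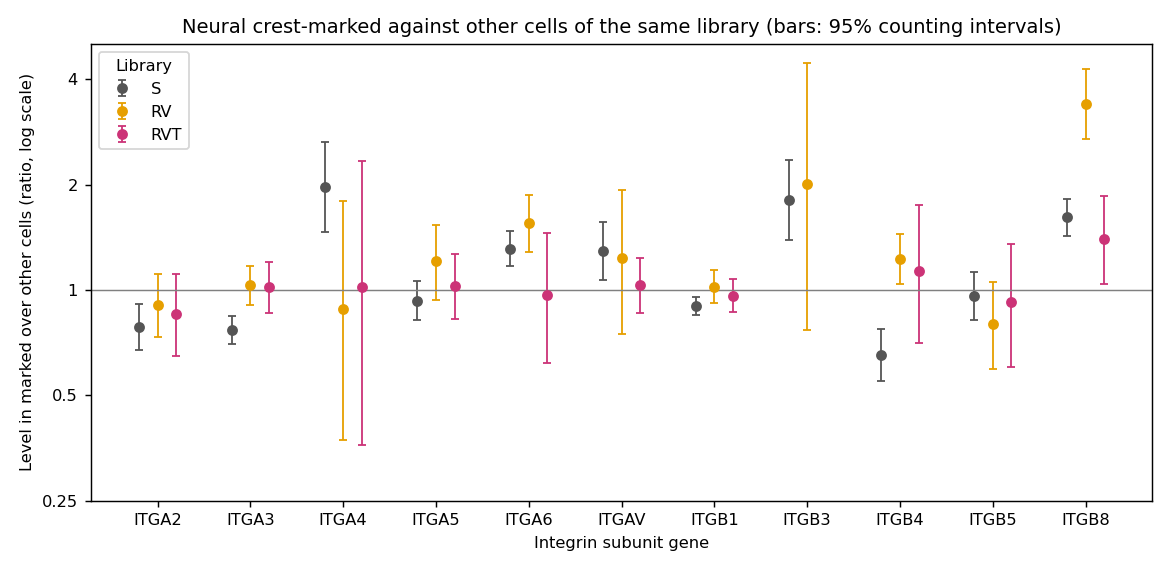
Ratio of the level in neural crest-marked cells to that in the other cells of the same library, on a log axis, for the members and *ITGB8* in S, RV and RVT. Bars are 95% counting intervals and the line marks a ratio of 1. *ITGA4* and *ITGB3* lay above the line and *ITGB4* below it in S, and *ITGB8* lay above it in all 3 libraries.

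In S and RVT, *ITGA6* was the member that differed most between cells marked by cell cycle genes and the rest, while in RV and RVC others had larger point differences. Cells with at least 3 of 12 G2/M genes after thinning numbered 525 in S (8.29%) and 443 in RV (10.6%), against 1559 in RVC (21.6%) and 318 in RVT (4.18%). *ITGA6* had 16.4 CPM in marked against 23.7 in other S cells, 24.3 against 24.0 in RV, 25.6 against 19.1 in RVC and 36.6 against 11.7 in RVT. The marked to other ratio of *ITGA6* was 0.691 in S (0.553 to 0.854) and 1.01 in RV (0.85 to 1.20), against 1.34 in RVC (1.13 to 1.59) and 3.13 in RVT (2.26 to 4.26). Marked cells were thus low in S and high in RVT, where 49 *ITGA6* UMIs came from marked cells. *ITGB1* had ratios of 1.18 in S and 1.13 in RV, against 1.07 in RVC and 0.829 in RVT, and its interval included 1 in RVC alone. Marked cells of RVT were also lower in *ITGA5* (0.697, 0.505 to 0.939) and *ITGAV* (0.782, 0.609 to 0.991), and those of RV in *ITGB4* (0.846, 0.729 to 0.977). *ITGB5* was at 0.785 in RV (0.63 to 0.969) and 1.23 in RVC (1.04 to 1.44), and *ITGA3* at 1.15 in S (1.01 to 1.30). The other member intervals, with those of *ITGA2* and *ITGA4* in all 4 libraries, included 1.

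The sum of the fibroblast markers was highest in RVC, where *ITGA2* was also highest. *COL3A1* supplied 121 CPM of that sum of 167. *COL1A1* (2.85 CPM in RVC and 3.54 in RVT) and *PDGFRB* (5.82 and 7.64) were higher in RVT. *LUM* was close in both, at 22.6 and 21.8 CPM. In RVC 37.3% of cells held a UMI of at least 1 of the 6 markers, against 11.6% in RVT, 2.37% in S and 2.73% in RV. *ITGA2* had 198 CPM in the RVC cells that held one and 122 CPM in the rest, among cells deep enough to thin, a ratio of 1.63 (1.54 to 1.73). Marked RVC cells were also higher in *ITGB5* (1.31, 1.13 to 1.51), *ITGAV* (1.16, 1.04 to 1.30), *ITGA5* (1.16, 1.06 to 1.27) and *ITGA3* (1.11, 1.03 to 1.21). In RVT the *ITGA2* ratio was 0.886 (0.715 to 1.09), and the intervals of all members with a ratio included 1. Marked RV cells were lower in *ITGB5*, at 0.634 (0.391 to 0.975), and higher in *ITGA3*, at 1.23 (1.04 to 1.45). Without all such cells RVC had 124 CPM of *ITGA2*, 60.1 of *ITGA5*, 38.2 of *ITGAV* and 0.305 of *ITGB4*, and the 2-fold calls of all 10 members in the 4 comparisons were the same. A cell with no marker UMI may still express these genes at this depth, so the part of fibroblast-like expression in the member levels was not tested. The part of the low melanocyte lineage markers of RVC in them was not tested either.

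Genes that act with integrins were followed as 4 lists. Their ratios and counts are of UMIs as counted and were not run with TMM scaling or GC centring. Across genes the log2 ratio fell with GC content in RVC over S (Spearman -0.348) and RVT over S (-0.411). The size or direction of a list ratio in these libraries may thus depend on it. Of 30 cytoplasmic activators and adaptors, 25 passed 1 CPM in the mean. At 2-fold, 0 were higher and 0 lower in RV over S, 6 and 4 in RVC, and 6 and 3 in RVT. Of all genes 3.48% were higher and 3.24% lower in RV, against 23.8% and 22.3% in RVC and 34.0% and 21.6% in RVT, which is the background for the counts of all 4 lists. The 6 of 25 higher were near it in RVC and below it in RVT. The list had medians of 0.14, -0.03 and 0.63 on the log2 scale. *VCL*, which links talin to actin, was 6.76-fold higher in RVC and 2.65-fold higher in RVT than in S. *RAP1B*, a GTPase of integrin activation, was 6.27-fold and 8.89-fold higher, and the focal adhesion protein gene *TNS3* 5.27-fold and 12.3-fold higher. *FERMT1*, a kindlin that binds beta tails, was 3.85-fold lower in RVC and 5.24-fold lower in RVT. *ZYX*, of mature focal adhesions, was 2.63-fold and 2.79-fold lower.

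A list of 9 genes, drawn up as inhibitors of integrin activation, passed that mean in full. It is mixed in role: *KANK2* is known to activate talin, *FBLIM1* to displace filamin from beta tails, and the Sprouty genes to restrain receptor tyrosine kinase signaling. In RV over S 1 was higher and 1 lower, in RVC 1 and 4, and in RVT 3 and 3, the last against 34.0% and 21.6% of all genes. *KANK2* was 4.14-fold higher in RVC and 6.21-fold higher in RVT. *SHARPIN*, which holds alpha tails inactive, was 3.95-fold and 5.10-fold lower. *SPRY1* was 6.38-fold lower in RVC and 3.68-fold higher in RVT than in S, and *ITGB1BP1*, a binder of the *ITGB1* tail, was 1.71-fold lower in RVC and 3.23-fold lower in RVT.

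Of 28 matrix and cell surface ligand genes, 24 passed that mean. *VCAM1* did so only through RVC, at 16.5 CPM, with 0.945 in RVT and 0 in S and RV. In RV over S 4 were higher and 3 lower of the 23 with a ratio, in RVC 8 and 4, and in RVT 15 and 0, with medians of 0.13, 0.16 and 1.33 on the log2 scale. Of all genes, 3.48% and 3.24% were past 2-fold in RV, against 23.8% and 22.3% in RVC and 34.0% and 21.6% in RVT. *FN1*, the ligand of the *ITGA5* receptor, was 7.70-fold higher in RVC than in S and 2.53-fold higher in RVT. *SPP1*, an RGD ligand of *ITGAV* receptors, was 6.71-fold higher in RVC, and its RVT over S ratio was 0.878. *THBS1*, a matricellular ligand, was 2.30-fold higher in RV, 3.10-fold lower in RVC and 20.2-fold higher in RVT. The laminin chains *LAMB3* and *LAMC1* were 4.36-fold and 4.22-fold higher in RVT, with RVC over S ratios of 1.20 and 0.901. *L1CAM*, an adhesion molecule that integrins bind, was 2.46-fold higher in RV and 10.7-fold lower in RVC. Also in RV over S, *CCN1* was 2.22-fold higher, while *NID1* and *TNC* were both 3.2-fold lower and *COL4A1* was 2.01-fold lower.

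Of 15 membrane partners and hemidesmosome genes, 14 passed that mean. In RV over S 1 was higher and 0 lower, in RVC 3 and 5 (23.8% and 22.3% of all genes), and in RVT 3 and 6 (34.0% and 21.6%). As counted, the 3 of 14 higher in RVT lay below the background, while the 5 of 14 lower in RVC and the 6 of 14 lower in RVT lay above it. In a list of this size these gaps are of few genes, and they were not tested. The list was also chosen with earlier results of these data known, so nothing is read from the counts. *CAV1*, of caveolae, was 3.23-fold higher in RV, 5.73-fold in RVC and 3.51-fold in RVT. The tetraspanin gene *CD82* was 17.0-fold higher in RVC and 1.31-fold higher in RVT. It reached the mean needed for naming only through RVC, at 51.5 CPM against 3.04 in S, 2.41 in RV and 3.98 in RVT. *CD151*, a tetraspanin that binds laminin receptors, was 3.22-fold lower in RVC and 3.57-fold lower in RVT. *SLC3A2*, the heavy chain that binds *ITGB1*, was 23.3-fold lower in RVC and 5.51-fold lower in RVT, and *BSG* 7.09-fold and 6.42-fold lower. Of the hemidesmosome plakins, *PLEC* was 3.48-fold lower in RVC, where *ITGB4* was also low, and 1.70-fold lower in RVT, and *DST* was 3.58-fold higher in RVC and 5.72-fold higher in RVT.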

How the data were processed

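Single-cell 3′ libraries of 4 A375 cultures (10x Chromium, v2 reagents) were analyzed. The authors deposited raw UMI counts per gene and barcode, which the labels place on GRCh38 and on bcl2fastq 2.20.0.422 and Cell Ranger. The Cell Ranger version and its handling of strand are not given in the sources used here. Symbols, positions and 3′ ends came from GENCODE release 29, promoters from RefSeq. Barcodes with under 500 genes or over 20% mitochondrial UMIs were dropped, then the highest doublet scores (Scrublet in scanpy 1.11.5, 0.8% per 1000 barcodes). UMIs were summed per library and scaled to CPM, with exact Poisson or Clopper-Pearson 95% intervals (scipy 1.17.1). Ratios carry exact conditional binomial intervals. A change was called at 2-fold, with the background from genes at a mean of 1 CPM or more. No test was run, since each condition had 1 library. UMI totals per library were 58611860 in S and 52389992 in RV, against 32968217 in RVC and 25407545 in RVT.

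Members and lists were chosen with earlier results of these data known. Named list genes were those past 2-fold with at least 10 CPM in the mean, at most 3 per direction and comparison, of which some are given. *CD82* met that mean only through RVC, *LAMB3* and *SPRY1* only through RVT, and *L1CAM* only through RV, so their rises there are partly selected. Neural crest genes came from the study's list, and the splits of cells by these and by fibroblast markers were added after seeing the data. Alternatives included TMM scaling (edgeR 4.0.16), other barcode filters, and GC centring in 20 bins over the last 500 bases. The ratio script was tested on simulated counts.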

Additional observations from a re-analysis of the deposited data

How the results depend on the processing

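At a fold of 1.5 in place of 2, the members counted higher and lower were 3 and 2 in RV over S and 5 higher in RVC over S, 5 and 2 in RVT over S, and 3 and 4 in RVT over RVC. TMM scaling left 1 member higher (*ITGAV*) and 3 lower (*ITGA6*, *ITGB3* and *ITGB4*) in RVT over S, and GC centring gave 4 higher (*ITGA3*, *ITGA5*, *ITGAV* and *ITGB4*, without *ITGA2*) and 2 lower (*ITGA6* and *ITGB3*). GC centring also added *ITGA3* to those higher in RVC over S and *ITGA6* to those lower in RVT over RVC. The other member counts stayed within 1.5 times under all deposited barcodes, a minimum of 1000 genes per cell, no doublet removal, equal weight per cell, and library size without ribosomal and mitochondrial genes. Leaving out cells with a fibroblast marker UMI, an alternative chosen after seeing the data, also kept them. Of 320 member ratios under these alternatives, 72 moved beyond their counting interval. The counts and ratios of the 4 gene lists were not run under these alternatives. Without a filter on low values 8.80% of genes were higher and 7.04% lower in RV over S, and at 10 CPM 1.89% and 1.26%. No paired analysis was possible because each condition had 1 library. *ITGB3* in RVT and *ITGB4* in RVC rest on 1 and 12 UMIs, so depth limits them.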
